A study of Mus musculus with 60 samples.

Results

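The insulin-like growth factor (IGF) genes were followed across 5 mouse cell lines made for the study of oculopharyngeal muscular dystrophy (OPMD). The genes were chosen by symbol: the ligands Igf1 and Igf2, the receptors Igf1r and Igf2r, and the binding proteins Igfbp2, Igfbp3, Igfbp4, Igfbp5, Igfbp6 and Igfbp7. They are 10 of the 15096 named mouse genes on the arrays and were read by 12 distinct probes, of which 8 probes of 7 genes had enough values to be tested. IM2 is the line that was not transfected. Wild-type Pabpn1 was introduced into WTA, labelled as high expression, and into WTD, labelled as low. Mutant Pabpn1 was introduced into D7E, labelled high, and D7F, labelled low. One part I array of D7F culture 1 is described as high where D7F is otherwise described as low, and it was kept in D7F as titled. The labels used here do not name the mutation, the promoter of the transgene, or the tissue that IM2 came from. Each line was grown as 3 cultures, and the total RNA of every culture was set against a common IM2 reference on spotted 2-colour arrays, with the dyes swapped on a second array. Each construct and level is held by a single line, so a difference between a transfected line and IM2 cannot be told apart from a difference that arose when that line was made, and the spread behind each p-value is that between sister cultures of 1 line.

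IGF1 and IGF2 are secreted growth factors that signal through the IGF1 receptor, a tyrosine kinase that passes the signal to the PI3K, AKT and mTOR branch and to the RAS and MAPK branch. The IGF2 receptor, also known as the cation-independent mannose 6-phosphate receptor, takes up IGF2 and sends it to the lysosome. The IGF binding proteins hold IGFs outside the cell and set how much reaches the receptor, and IGFBP7 binds them with much lower affinity than the other members. In skeletal muscle the pathway is known for driving growth and differentiation, and IGFBP5 is known as a binding protein secreted by muscle cells as they differentiate. PABPN1 is a nuclear protein that binds poly(A) tails, and an expanded alanine tract in it causes OPMD.

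Igfbp7 and Igfbp5 are the members whose RNA was lower in the transfected lines, and their upstream sequences are given here so that the genes can be set side by side. Both are the 250 bases before the RefSeq start, 5′ to 3′ on the coding strand, from RefSeq on build GRCm38.p6. The Igfbp7 window is chr5:77408046-77408295 and the Igfbp5 window is chr1:72874866-72875115, both on the minus strand. Capitals mark matches on either strand to the E-box (CANNTG), the GC box (GGGCGG), the TATA box (TATAAA) and the core of the hypoxia response element (ACGTG), of which ACGTG can overlap an E-box.
Igfbp7: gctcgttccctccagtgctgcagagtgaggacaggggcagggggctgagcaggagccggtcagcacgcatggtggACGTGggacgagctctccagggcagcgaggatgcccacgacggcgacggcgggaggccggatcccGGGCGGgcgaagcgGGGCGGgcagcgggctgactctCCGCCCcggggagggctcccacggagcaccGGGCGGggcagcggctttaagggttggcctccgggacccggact
Igfbp5: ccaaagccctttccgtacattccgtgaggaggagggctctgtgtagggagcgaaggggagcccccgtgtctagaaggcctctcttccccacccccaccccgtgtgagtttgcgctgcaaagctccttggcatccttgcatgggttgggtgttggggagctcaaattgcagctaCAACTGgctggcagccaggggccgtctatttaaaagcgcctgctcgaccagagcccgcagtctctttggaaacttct
The windows shared no motif of the 4 searched. Igfbp7 had 4 GC boxes, 1 ACGTG and no E-box, with a GC content of 74% and 26 CpG dinucleotides, more than in 90.4% of windows. Igfbp5 had 1 E-box and no GC box, with a GC content of 58.8% and 10 CpG dinucleotides. Among 32817 windows of the same length, 66.2% held an E-box, 32.7% a GC box, 12.4% a TATA box and 16.6% ACGTG. The median GC content was 52.4% with 6 CpG dinucleotides. A match is a stretch of letters and not a measured binding site. On chromosome 1 Igfbp5 lies next to Igfbp2, with no other protein-coding gene between them in RefSeq.

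Values are log2 ratios of a culture over the IM2 reference, averaged over both dye arrays of the culture. The deposited ratios are taken as base 10 logarithms, so folds hold only if that base is right, while signs and p-values do not depend on it. Arrays carried a value for 82.4% to 99.9% of rows on array part I and for 46.0% to 99.4% on part II, and 10 of 60 arrays, among them both part I arrays of IM2 culture 1, had few values or many at the limit of the scale. Pabpn1 itself stood at -0.18 in the IM2 cultures, at 2.19 and 1.43 in the wild-type lines WTA and WTD, and at 1.61 and 0.92 in the mutant lines D7E and D7F. It was above 0 on 24 of 24 transfected part I arrays. All members but 1 Igf1r probe were read on part I.

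Against IM2, 2 of the 8 IGF probes fell and 1 rose when the 4 transfected lines were averaged, and the binding proteins held all 3 (limma, Benjamini-Hochberg adjusted p under 0.05). Of all 9723 probes tested, 15.2% passed in this comparison, 8.82% lower and 6.4% higher. Each line taken singly had 2 called IGF probes. The share of all probes was 11.5% for WTA, 7.02% for WTD, 12.3% for D7E and 4.49% for D7F. Igfbp7 fell in all 4 lines, Igfbp5 fell in WTA, D7E and D7F, and Igfbp2 rose in WTD. In the test over all 5 lines Igfbp7 and Igfbp5 passed, as did 10.2% of all probes. The median difference of the 8 probes was -0.15 and that of all probes 0.03.

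**Figure D1:**
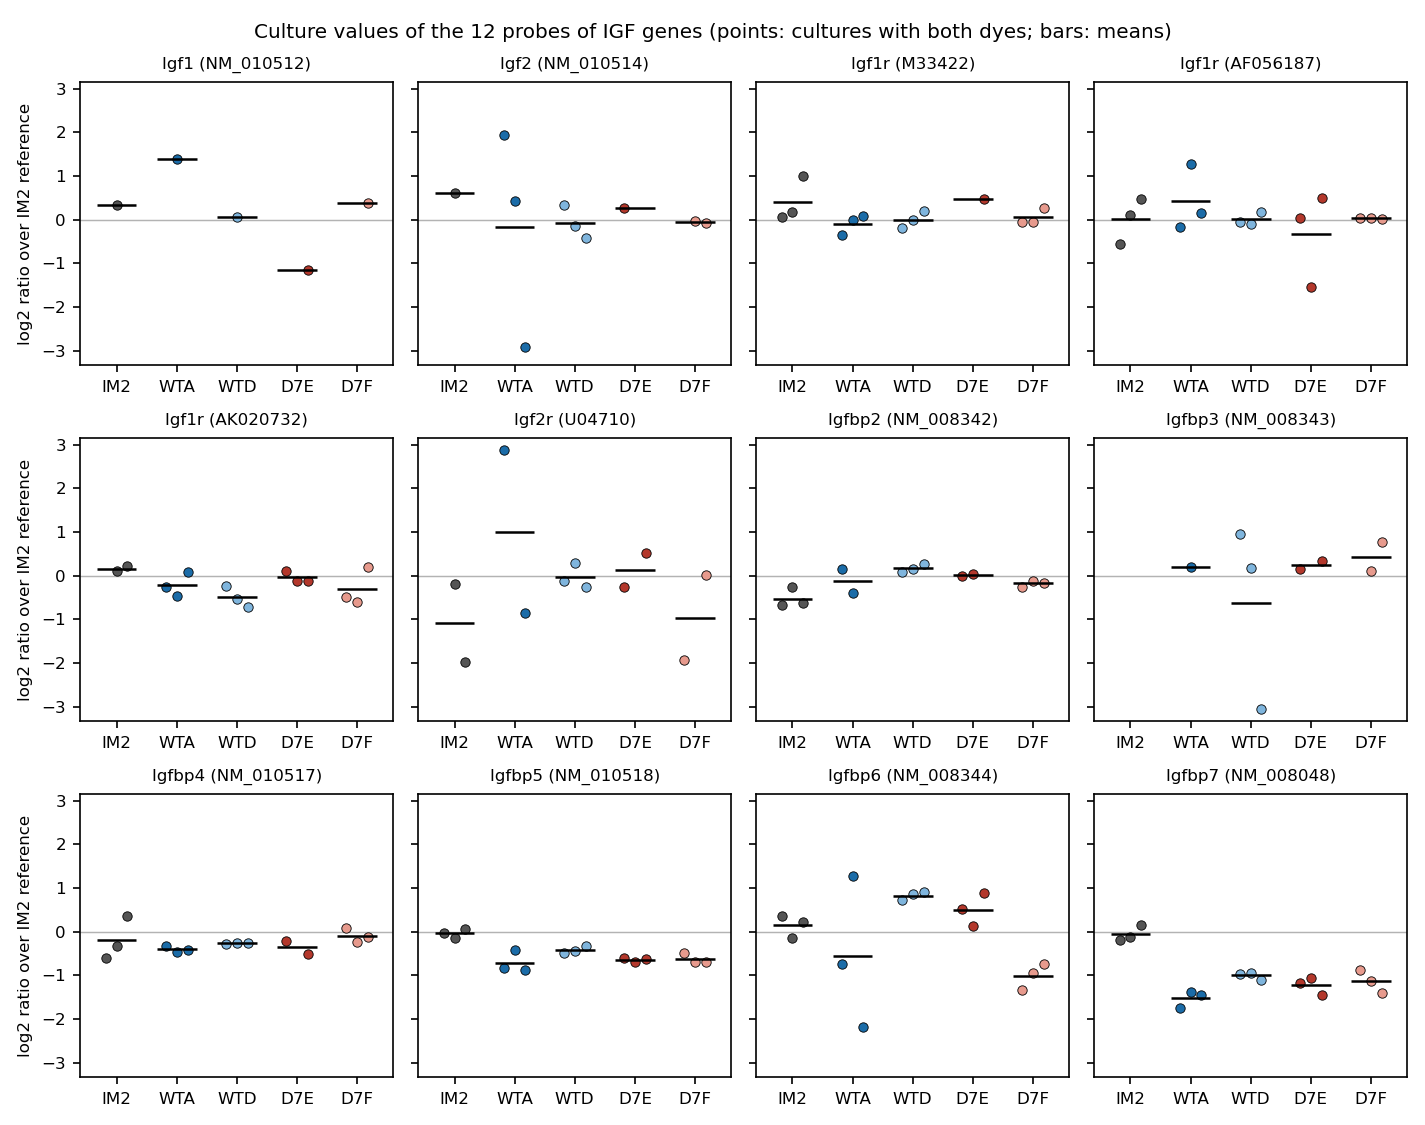
Log2 ratio over the IM2 reference for each of the 12 probes, with a point for every culture that had both dye arrays and a bar at the mean of the line. The Igfbp7 and Igfbp5 points of the 12 transfected cultures all lie below the 3 IM2 points, while Igf1, Igf2 and Igfbp3 have few points or a wide spread.

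The ligands could not be tested. Igf1, the growth factor made by liver and many other tissues, was inside the limits of the scale on 16 of 30 arrays and had both dyes in 5 cultures, 1 per line. The values were 0.34 for IM2, 1.39 for WTA, 0.07 for WTD, -1.15 for D7E and 0.38 for D7F, and with 1 culture per line no order of the lines can be read from them. Igf2, the fetal growth factor expressed from the paternal allele, was inside the limits on 24 arrays and had both dyes in 10 cultures. Its WTA cultures were at 1.95, 0.42 and -2.90, so the spread within that line was wider than the distance between any 2 line means. The WTD cultures were at 0.33, -0.14 and -0.42 and the D7F cultures at -0.04 and -0.08, around the level of the reference. Single Igf2 cultures stood at 0.61 for IM2 and 0.28 for D7E.

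None of the receptor probes passed. Igf1r, the signalling receptor, was read by 3 probes. The probe AK020732 on part II had both dyes in 14 of 15 cultures, with 0.11 and 0.21 in the IM2 cultures that could be read, and -0.24, -0.53 and -0.71 in WTD. The WTA cultures were at -0.26, -0.46 and 0.08, the D7E cultures at 0.11, -0.11 and -0.11, and the D7F cultures at -0.49, -0.60 and 0.19. WTD lay below both IM2 values and the other lines overlapped or nearly reached them. WTD minus IM2 was -0.66 (SE 0.24, adjusted p = 0.121), and the mean of the 4 lines minus IM2 was -0.42 with a 95% confidence interval from -0.86 to 0.02 (adjusted p = 0.179). The transfected cultures were also set against the reference itself instead of the IM2 cultures. The same probe was then at -0.26 and passed (limma adjusted p = 0.0133), as did 4512 of the 9723 probes. That contrast leaves out the mean of the IM2 cultures and the error of that mean.

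Neither of the other Igf1r probes had WTD as its lowest line. AF056187 was at 0.01 ± 0.53 (SD, n = 3) in IM2. It was at 0.43 ± 0.76 for WTA and 0.01 ± 0.15 for WTD, and at -0.34 ± 1.07 for D7E and 0.03 ± 0.01 for D7F (all n = 3). Its mean difference from IM2 was 0.03 with an interval from -0.80 to 0.85. M33422 was not tested because D7E had 1 culture with both dyes, at 0.48. Its IM2 mean of 0.41 lay above the means of WTA (-0.09), WTD (0.0013) and D7F (0.06), as for AK020732. The IM2 cultures of M33422 were spread from 0.06 to 0.99. Igf2r, the clearance receptor, had a mean of -1.08 over 2 IM2 cultures, 1.01 over 2 of WTA, -0.03 over 3 of WTD, 0.13 over 2 of D7E and -0.96 over 2 of D7F. Both dye arrays of a culture differed for Igf2r by up to 7.18, and the interval of its mean difference from IM2 ran from -0.97 to 3.21. No change of the clearance receptor was called, and an interval of that width includes a fall, no change and a rise.

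Igfbp7, a secreted binding protein of low IGF affinity that is found in extracellular matrix, was the most clearly lowered member. Its IM2 cultures were at -0.19, -0.11 and 0.16. The WTA cultures were at -1.74, -1.38 and -1.45, and the WTD cultures at -0.96, -0.93 and -1.10. The D7E cultures were at -1.16, -1.06 and -1.44, and the D7F cultures at -0.87, -1.13 and -1.41. Every transfected culture was below every IM2 culture, as was so for 7.88% of the 5536 probes read inside the limits throughout. The mean of the transfected lines was 2.25-fold lower than IM2 (log2 difference -1.17, SE 0.13, limma adjusted p = 0.000173). By line the difference was -1.48 in WTA (adjusted p = 0.000277), -1.17 in D7E (0.00104), -1.09 in D7F (0.00309) and -0.95 in WTD (0.00545), each with an SE of 0.16.

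The separation held on single arrays. The 24 transfected arrays lay between -1.91 and -0.62, and the 6 IM2 arrays between -0.54 and 0.18. Igfbp7 read lower with the culture in Cy3 than in Cy5, with transfected means of -1.42 and -1.02. With Cy5 arrays alone the call was lost in WTD (adjusted p = 0.199), D7E (0.0896) and D7F (0.243), while the mean over the transfected lines kept its call with either dye. From highest to lowest the transfected lines stood in the order WTD at -0.998 ± 0.089 (SD, n = 3), D7F at -1.14 ± 0.27 (n = 3), D7E at -1.22 ± 0.20 (n = 3) and WTA at -1.52 ± 0.19 (n = 3). No neighbours in that order differed beyond the test, and the ends, WTA minus WTD, differed by -0.53 (SE 0.16, adjusted p = 0.142).

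Igfbp5, which binds IGFs and extracellular matrix, fell by less than Igfbp7. The IM2 cultures were at -0.03, -0.14 and 0.05. The WTA cultures were at -0.83, -0.42 and -0.88 and the WTD cultures at -0.48, -0.45 and -0.33. The D7E cultures were at -0.59, -0.69 and -0.63 and the D7F cultures at -0.48, -0.69 and -0.69. Again no transfected culture reached the IM2 cultures. The mean of the transfected lines was 1.47-fold lower than IM2 (log2 difference -0.56, SE 0.10, limma adjusted p = 0.00368). WTA was lower by 0.67 on the log2 scale (difference -0.67, adjusted p = 0.00597), D7E gave -0.60 (0.0109) and D7F gave -0.58 (0.0219). WTD was at -0.38 and did not pass (adjusted p = 0.0896).

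Igfbp5 had the closest agreement between dyes of all members, with a median gap of 0.0994 between both arrays of a culture. Its 24 transfected arrays lay between -1.02 and -0.33 and its 6 IM2 arrays between -0.17 and 0.16. Of the same 5536 probes, 2.28% had every transfected array below every IM2 array, and 2 of the 4 IGF probes that could be compared, Igfbp5 and Igfbp7, were among them. With Cy3 arrays alone the Igfbp5 calls were lost in WTA (adjusted p = 0.0572), D7E (0.106) and D7F (0.1002), at differences between -0.59 and -0.70. The call for D7F was lost without IM2 culture 1 or 3 or without D7F culture 2 or 3, with adjusted p up to 0.0865, and the test over 5 lines was lost without IM2 culture 1 or 3 (up to 0.0651). The mean over the transfected lines passed in all 28 alternatives for Igfbp5 and in all 28 for Igfbp7.

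**Figure D2:**
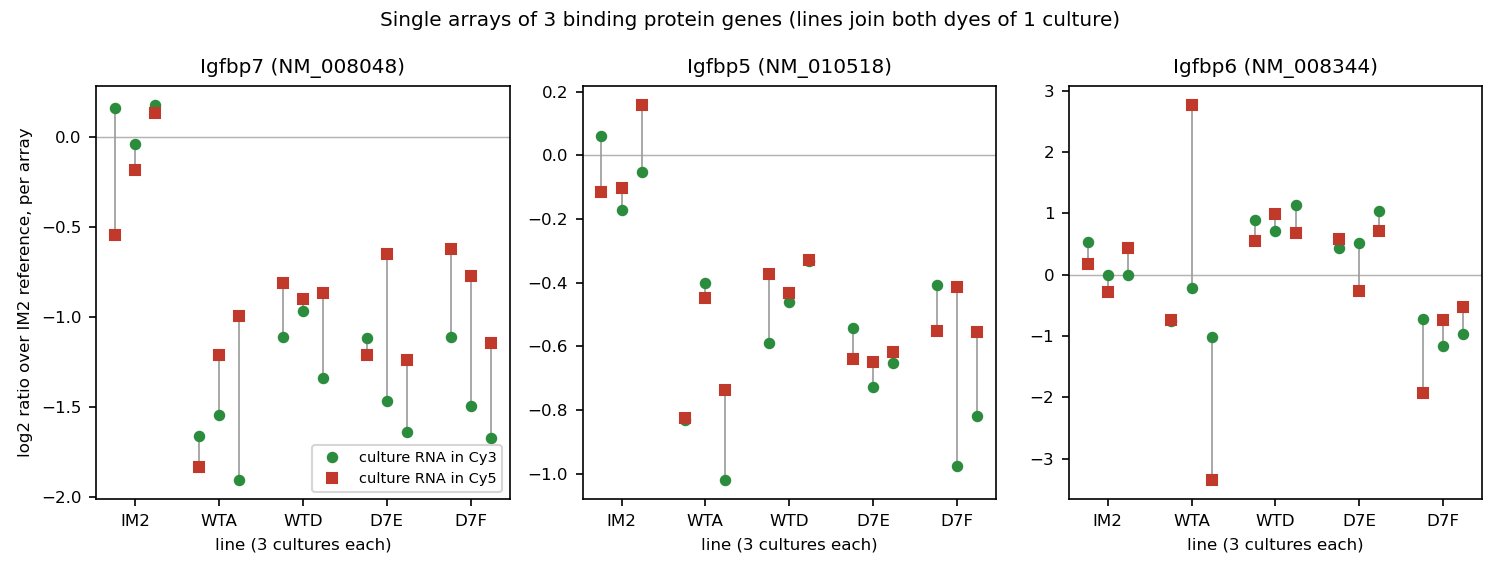
Log2 ratio over the IM2 reference on every part I array for Igfbp7, Igfbp5 and Igfbp6, with the culture RNA in Cy3 (circles) or Cy5 (squares) and a line joining both arrays of a culture; the vertical scales differ. The highest transfected arrays, -0.62 for Igfbp7 and -0.33 for Igfbp5, lie below the lowest IM2 arrays, -0.54 and -0.17, while both arrays of a culture disagree for Igfbp6 in WTA cultures 2 and 3; the dyes follow the channel labels.

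Igfbp2, a binding protein with high affinity for IGF2, was called higher against the IM2 cultures but lost that call in most alternatives, the IM2 reference itself among them. The IM2 cultures were themselves low, at -0.68, -0.26 and -0.63, although the same line made the reference. The WTA cultures were at 0.16 and -0.41, the WTD cultures at 0.09, 0.15 and 0.28, the D7E cultures at -0.0033 and 0.03, and the D7F cultures at -0.25, -0.12 and -0.16. The low IM2 values came mainly from the Cy5 arrays, with a mean of -0.96 against -0.08 in Cy3. WTD minus IM2 was 0.69 (SE 0.16, adjusted p = 0.0318) and the mean of the 4 lines minus IM2 was 0.49 (SE 0.13, adjusted p = 0.0317). Against the reference itself the mean of the 4 lines was -0.029 (adjusted p = 0.746) and WTD was at 0.17 (0.382). The call for WTD was kept in 8 of 25 alternatives and that for the mean in 11 of 24. Without IM2 culture 1 or 3 both calls were lost, with adjusted p up to 0.119 for the mean, and without any one WTD culture the WTD call was lost (up to 0.106). With Cy3 arrays alone WTD minus IM2 was 0.26 (adjusted p = 0.734) and the mean 0.12 (0.812), and with Cy5 arrays alone WTD minus IM2 was 1.13 (0.0639). The mean kept its call with Cy5 arrays alone, at 0.89, but lost it with the dye of WTA culture 3 taken from the titles. Without the doubtful arrays the values were 0.61 (adjusted p = 0.0887) and 0.31 (0.229).

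Igfbp4 and Igfbp3 gave no call. Igfbp4, a binding protein that mostly holds IGFs back from the receptor, had line means between -0.40 ± 0.07 (SD, n = 3) in WTA and -0.09 ± 0.16 (n = 3) in D7F, with IM2 at -0.18 ± 0.49 (n = 3). Its IM2 cultures at -0.59, -0.32 and 0.37 enclosed every transfected culture. The mean difference from IM2 was -0.10 with an interval from -0.45 to 0.26 (adjusted p = 0.733), an interval that includes a fall as large as the -0.38 of Igfbp5 in WTD. Against the reference itself Igfbp4 was at -0.28 and passed (adjusted p = 0.0109), as did 4512 of the 9723 probes. That contrast leaves out the mean of the IM2 cultures, which was -0.18 over the same reference, and the error of that mean. Igfbp3, the main IGF carrier in blood, was not tested, since no IM2 culture had both dyes. Its D7E cultures were at 0.16 and 0.33 and its D7F cultures at 0.11 and 0.76, but the WTD cultures ran from -3.04 to 0.97.

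Igfbp6, which prefers IGF2 over IGF1, split the transfected lines in another way. The WTD cultures were at 0.73, 0.85 and 0.91 and the D7E cultures at 0.51, 0.13 and 0.88. The D7F cultures were at -1.32, -0.94 and -0.75, and the IM2 cultures at 0.36, -0.14 and 0.22. WTD and D7E did not overlap D7F, and IM2 overlapped D7E but neither WTD nor D7F. The share of all probes whose lines lie apart in this way was not counted. The WTA cultures were at -0.74, 1.28 and -2.18, and their arrays disagreed: culture 2 read -0.22 in Cy3 and 2.77 in Cy5, and culture 3 read -1.01 and -3.35 on arrays that the channel labels give as Cy3 and Cy5 and the titles the other way round. With every culture, both dyes and the deposited scale no comparison of Igfbp6 passed: D7F minus WTD was -1.83 (SE 0.61, adjusted p = 0.396).

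Genotype by level is taken as WTD and D7E averaged, less WTA and D7F averaged, and tests whether the high and low lines differed in the same way for wild-type and mutant Pabpn1. For Igfbp6 it was 1.44 (SE 0.43, unadjusted p = 0.00565, adjusted p = 0.101), and 2.37% of all probes passed. With the Cy3 arrays alone, dyes as in the channel labels, it was 1.59 and passed (adjusted p = 0.00166), as did D7F minus WTD at -1.86 (0.0140). Of all 12880 probes, 49 and 14 passed there. With the dye of WTA culture 3 taken from the titles neither difference of Igfbp6 passed, at 1.98 (adjusted p = 0.0808) and -1.86 (0.868). After each array was centred and scaled, its genotype by level was 1.36 (adjusted p = 0.0342) and D7F minus WTD -2.07 (0.0415), both passing. Of all 9723 probes, 275 and 102 passed there. Without WTA culture 2 genotype by level of Igfbp6 was 1.90 and passed (adjusted p = 0.00177), as did 226 of 7983 probes. In that fit WTA minus WTD was -2.29 (adjusted p = 0.00576), D7F minus WTD -1.83 (0.0273) and D7E minus WTA 1.97 (0.0243). Of all 7983 probes, 258, 67 and 116 passed in these pairs. For Igfbp6 WTA minus IM2 was -1.61 (adjusted p = 0.0126) there, and the test over the 5 lines also passed (0.00438), as did 1153 of 7983 probes. Most alternatives gave no call for Igfbp6. Genotype by level passed in 3 of 27, and D7F minus WTD and the test over the 5 lines in 3 of 28 each. For the test over the 5 lines the 28 include the fit against the reference itself, which leaves IM2 out and did not call Igfbp6. WTA minus WTD passed in 2 of 28, D7E minus WTA in 1 of 28 and WTA minus IM2 in 1 of 29. The imprinted gene Cdkn1c, a cell cycle inhibitor, also had WTD and D7E highest, with a call (genotype by level 1.56, adjusted p = 1.25e-05). It stood at 1.45 in WTD and 1.06 in D7E, against -0.30 in WTA, -0.32 in D7F and -0.22 in IM2. For Cdkn1c WTA and D7F thus lay near IM2, whereas the mean of Igfbp6 was -1.01 in D7F and 0.14 in IM2.

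No IGF probe passed the test between transfected lines with every culture, both dyes and the deposited scale. Across the 6 pairs of transfected lines 0 of 48 tests passed in limma, with 6 at an unadjusted p under 0.05 and a lowest adjusted p of 0.142. Of all probes, 1.77% passed between WTA and WTD, 1.64% between D7E and WTA, 0.453% between D7F and WTD, 0.288% between D7F and WTA, and 0.226% in each of the other pairs. Mutant against wild-type Pabpn1 called 0 of 8 IGF probes with 0 at an unadjusted p under 0.05, and 0.195% of all probes passed. For Igfbp7 that difference was 0.08 with an interval from -0.17 to 0.33, and for Igfbp5 it was -0.06 from -0.26 to 0.13. A difference between these lines as large as the fall from IM2 lay outside both intervals. The intervals rest on the spread of sister cultures and leave out the spread between lines of a genotype. They therefore set no bound on a genotype difference beyond these lines. High against low expression called 0 of 8 with 1 at an unadjusted p under 0.05, Igfbp7 at -0.31 (interval from -0.56 to -0.05, adjusted p = 0.516), and 0.381% of all probes passed. Genotype by level called 0 of 8 with 1 at an unadjusted p under 0.05, which is Igfbp6.

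**Figure D3:**
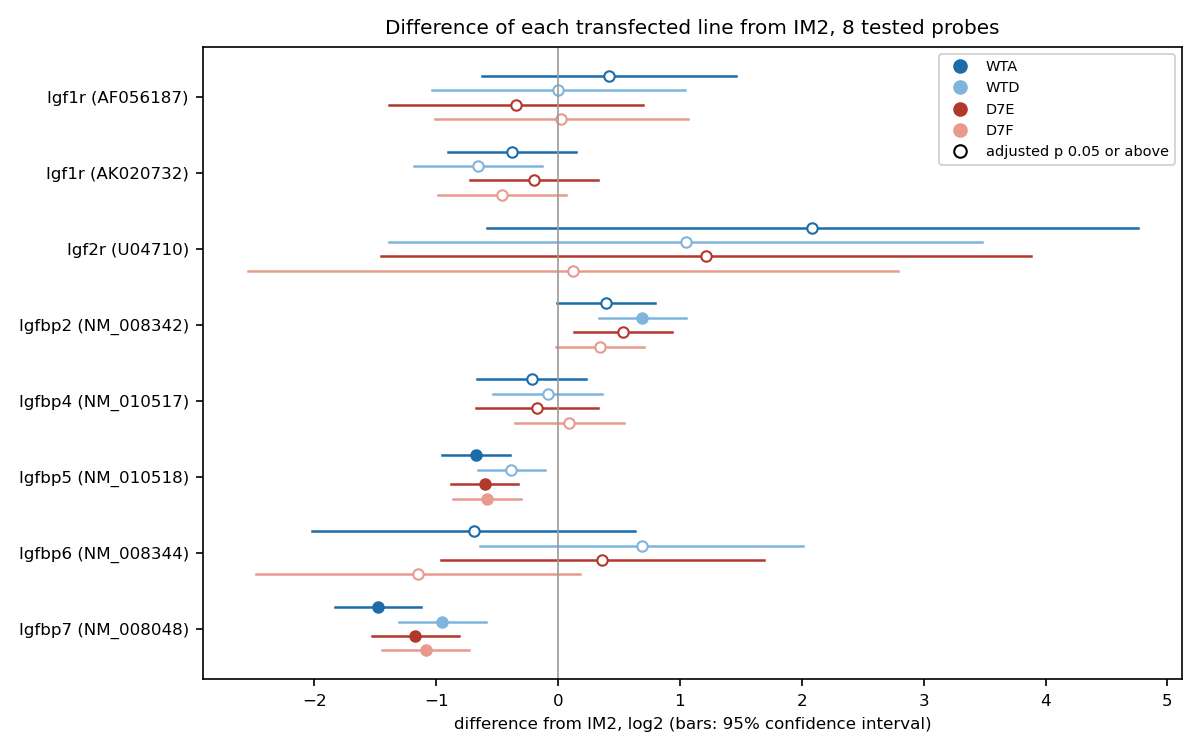
Difference of each transfected line from IM2 on the log2 scale for the 8 tested probes, with 95% confidence intervals; filled points have an adjusted p under 0.05. Igfbp7 lies left of 0 in all 4 lines, from -1.48 in WTA to -0.95 in WTD, and the intervals of Igf2r and Igfbp6 are the widest.

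Among the 9723 probes, Igfbp7 was the 52nd by p-value in the comparison of the transfected lines with IM2 and the 130th from the lowest by size, and Igfbp5 was the 305th by p-value. Over the 15 cultures the probes of other genes most like Igfbp7, by Pearson correlation of the culture ratios among 2872 probes read in every culture, were S100a11 (r = 0.961), Tnfrsf1a (0.956) and Ctbp2 (0.949). Those most like Igfbp5 were Prdx4 (0.949), Bex3 (0.936) and Hs1bp3 (0.930). All 6 were lower in the transfected lines than in IM2, from -0.52 for Bex3 to -1.53 for Prdx4. The correlations describe these cultures, which share arrays and the reference, and rest largely on the step between IM2 and the other lines.

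**Figure D4:**
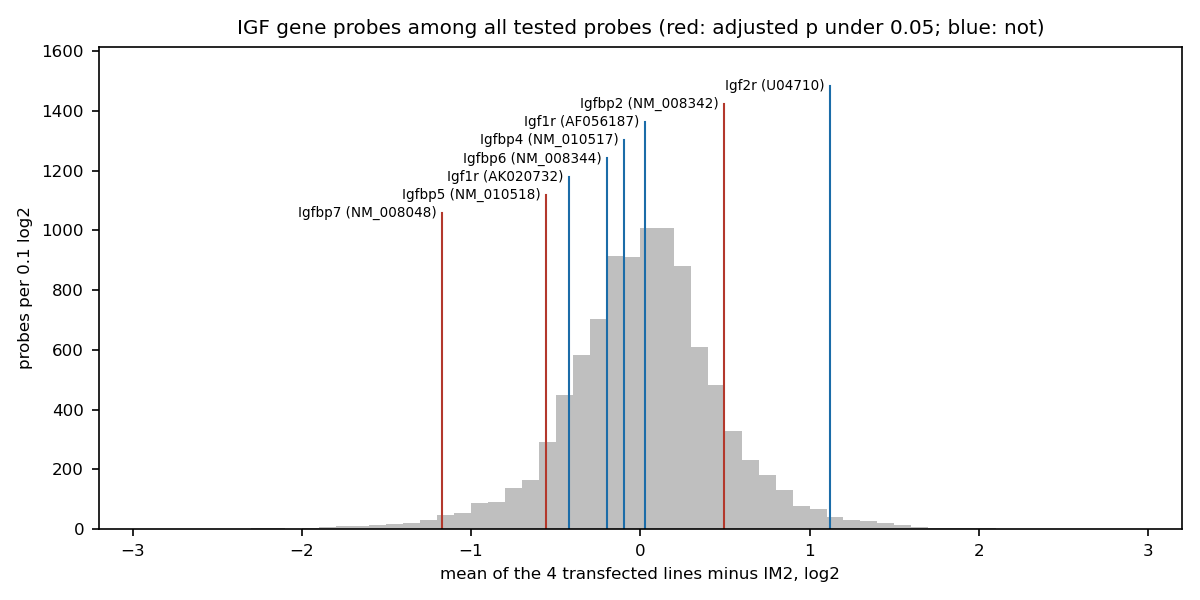
Number of probes (vertical axis) by the mean difference of the 4 transfected lines from IM2 on the log2 scale (horizontal axis, bins of 0.1), with a line for each of the 8 IGF probes, red where the adjusted p is under 0.05. Igfbp7 at -1.17 lies in the left tail, and Igf2r at 1.12 lies in the right tail without a call.

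Other genes of the pathway were counted in the same contrast, which averages the 4 lines and sets them against IM2 and in which 15.2% of all probes passed, 8.82% lower and 6.4% higher. The lists are small and their counts are a description beside those shares. Of 7 probes for proteases of the binding proteins and their regulators, 1 fell: Htra1, a secreted serine protease that cleaves IGFBP5, was at -1.11 (SE 0.16, limma adjusted p = 0.000966). Of 14 probes for receptor adaptors and phosphatases, 3 fell and 0 rose, with Grb10, an adaptor that restrains the receptor, at -1.16 (adjusted p = 0.000298) and Irs2, a docking protein of the receptor, at -1.12 (0.00605). Grb10 also passed genotype by level at -0.79 (adjusted p = 0.00745), with WTD at -1.37 and D7E lower still, against -0.59 for WTA and -0.71 for D7F. Of 26 probes of the PI3K, AKT, mTOR and FOXO branch, 3 rose and 3 fell, among them Ddit4, an inhibitor of mTORC1, at -1.26, Eif4ebp1, a repressor of translation, at -0.81, and the mTOR subunit Mlst8 at 0.81. The RAS and MAPK branch had 1 of 8 probes higher. The other IGF axis genes, such as the insulin receptor and the IGF2 mRNA binding proteins, had 0 of 3 called in this comparison, with a median of -0.32. Among imprinted genes, the class that holds Igf2 and Igf2r, 4 of 16 probes rose and 1 fell. Among those that rose were the amino acid transporter Slc38a4 at 2.52 and Snrpn at 0.70. Igf2, Igf2r and Grb10 were placed in other lists and are not in this count.

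Markers of muscle and fibroblasts were called in the same contrast, in which 6.4% of all probes were higher and 8.82% lower. Of 32 muscle marker probes 11 rose and 1 fell, with a median of 0.42, and Myf6, a muscle transcription factor, was at 0.54 (adjusted p = 0.00384). Myf6 was not raised evenly: it stood at 0.99 in WTA and 0.76 in D7F, against 0.15 in WTD and 0.21 in D7E. It passed genotype by level at -0.69 (limma adjusted p = 0.00147). The probe that fell reads Neb, a giant protein of the muscle thin filament, at -0.33 (adjusted p = 0.0492), while another Neb probe rose. The mean over the 28 muscle probes read in all cultures was -0.26 to 0.07 in IM2 and 0.23 to 0.46 in the transfected cultures. Of 11 fibroblast marker probes 6 fell and 1 rose, with a median of -1.03; the collagen gene Col3a1 was at -1.44 (adjusted p = 0.000337), Col1a1 at -1.22 (0.00162), the matrix gene Fbln1 at -1.51 (0.00127) and Dpt at 0.87 (0.00966). The mean over 7 fibroblast probes was -0.00088 to 0.10 in IM2 and -0.89 to -0.15 in the transfected cultures. Adipocyte (0 of 4), endothelial (0 of 3), smooth muscle (0 of 4) and bone and cartilage (0 of 1) markers gave no call in this contrast, and no leukocyte marker could be tested. The smooth muscle actin gene Acta2 passed the test over the 5 lines (adjusted p = 0.0338) and genotype by level at 0.63 (0.0310). It stood at 0.77 in WTD and 0.50 in D7E, against -0.09 in WTA, 0.09 in D7F and 0.02 in IM2. In WTD against IM2, 1 of 4 smooth muscle probes rose. Ratios give no level, so which markers are near 0 in these lines is not known from them. Fewer cells of a type and less RNA per cell cannot be told apart in bulk RNA, and the part of these markers in the lower Igfbp7 and Igfbp5 was not tested.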

How the data were processed

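Total RNA of 15 cultures was measured on 60 spotted 2-colour arrays, 30 on each of 2 parts with different probes. The values are log ratios, 1 per row, made by the authors from the scanned arrays and deposited with limits at -2 and 2, which were read as log10. The sources used here do not give the base, normalization, background correction or array software. The direction was taken as culture over reference on all arrays. The dye of WTA culture 3 differs between title and channel label on part I, and the channel label was followed. For 1 part I array of D7F culture 1 the title was followed over a description as high.

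Values at the limits were dropped, the ratios multiplied by 3.3219 to log2, repeated identical rows of a probe counted once, and both dye arrays of a culture averaged. Probes with 2 cultures in every line (4652 on part I, 5071 on part II) were fitted with limma 3.58.1 in R 4.3.3, 1 model of the 5 lines per part, with Benjamini-Hochberg adjustment over both parts and a threshold of 0.05. The fit was tested on simulated data. The number of arrays limits the precision. Human IGF2R control spots were left out.

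All probes of the 10 genes are named. Of the other lists, at most 4 genes each that passed the test over the 5 lines are named, and for each called gene the 3 most correlated genes. The members and lists were chosen with earlier results of these data known. Alternatives were other treatments of limit values and dyes, centring and scaling, the sign of the IM2 arrays, doubtful arrays, each culture left out, culture number as a block, 2 lines alone, and, chosen after seeing the data, the ratio against the reference itself and single-dye fits with the dye of WTA culture 3 by title.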

Additional observations from a re-analysis of the deposited data

How the results depend on the processing

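Igfbp7 and Igfbp5 kept their call and direction for the transfected lines against IM2 in all alternatives run, with adjusted p up to 0.0380 and 0.0350. Counts of called IGF probes moved as follows. The probes tested and the calls over all probes moved with the setting too, and whether a lost call is particular to IGF probes was not tested. Over the 5 lines the count of 2 became 1 with limit values kept, with 1 dye array enough and without doubtful arrays, and 0 with Cy5 arrays alone. In that order the calls over all probes went from 990 of 9723 to 493 of 12945, 376 of 18259, 262 of 11564 and 181 of 12875. With a culture left out the IGF count was 1 to 3. For WTA the 2 became 1 with Cy3 arrays alone and with arrays centred and scaled, and 0 in a fit of 2 lines alone, where 1 of all probes passed. For WTD the 2 became 1 with limit values kept, 1 dye array enough, Cy3 arrays alone, no doubtful arrays, 1 culture per line enough and 2 lines alone, 0 with Cy5 arrays alone, and 1 to 2 with a culture left out. For D7E the 2 became 1 with either dye alone and with 2 lines alone. Over all probes the D7E calls went from 1196 of 9723 to 477 of 12880 with Cy3 and 421 of 12875 with Cy5. They were 174 of 10783 with 2 lines alone. For D7F the 2 became 1 with 1 dye array enough and without doubtful arrays, and 0 with Cy5 arrays alone and 2 lines alone. In that order the D7F calls over all probes went from 437 of 9723 to 214 of 18259, 152 of 11564, 101 of 12875 and 17 of 10814. With a culture left out the IGF count for D7F was 1 to 2. The pairs of transfected lines went from 0 to 2 with Cy3 arrays alone, 1 with arrays centred and scaled, and 0 to 3 with a culture left out, where the 3 came without WTA culture 2. Genotype by level went from 0 to 1 with Cy3 arrays alone and with arrays centred and scaled, and 0 to 1 with a culture left out. With the dye of WTA culture 3 by title, Cy3 arrays alone gave 1 over the 5 lines and 1 in each line against IM2, with no call between transfected lines (0) or for genotype by level (0). Cy5 arrays alone then gave 0 over the 5 lines, 0 in WTD, D7E and D7F, and 2 in WTA. The causes were not tested.

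When the IM2 arrays were given the opposite sign, Igfbp2 reversed to -0.35 in WTD (adjusted p = 0.222), -0.65 in WTA (0.0416), -0.70 in D7F (0.0292) and -0.55 over the transfected lines (0.0174), and against the reference itself to -0.029 (0.746). Same-numbered cultures of different lines correlated from -0.30 to 0.43 (part I) and from -0.28 to 0.53 (part II). Cultures of other numbers correlated from -0.46 to 0.37 and from -0.45 to 0.46. The medians were -0.0048 against 0.019 on part I and 0.080 against -0.0092 on part II, so the ranges overlapped widely and no clear pairing was seen. With the culture number as a replicate block the WTD count was 1 in place of 2, and no other count of called IGF probes left 1.5 times its main value. Over all probes, the count for the transfected lines against IM2 was 1480 and ran from 397 to 4512. It was 1121 in WTA (1 to 2368) and 683 in WTD (138 to 1671), then 1196 in D7E (174 to 2273) and 437 in D7F (17 to 1471). It was 990 over the 5 lines (181 to 3496), 230 for genotype by level (34 to 364), 37 for high against low (6 to 76) and 19 for mutant against wild-type (5 to 29); for the comparisons with IM2 and over the 5 lines the highest count was against the reference itself.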
